A study of Mus musculus with 15 samples.

Results

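The 10 genes described here are Kdr, Flt1, Tek, Tie1, Pecam1, Cdh5, Emcn, Ehd3, Plvap and Eng, which mark the endothelium, the cells that line blood vessels. They were taken by gene symbol from a table of kidney read counts, in which all 10 were found among 23866 genes, and all 10 passed the filter on low counts that left 16105 genes for testing. The kidneys came from 14 male C57BL/6 mice in 4 groups. In the CCl4+EtOH group (n = 3), 6 weeks of intraperitoneal carbon tetrachloride, a solvent that injures liver and kidney, were followed by 4 weeks of ethanol. The titles of these samples repeat CCl4 before ethanol, so the labels do not settle whether CCl4 went on beside the ethanol. The EtOH group (n = 4) had 6 weeks of the vehicle, olive oil, and then 4 weeks of ethanol. The CCl4 group (n = 4) had 6 weeks of CCl4, which in 2 of its mice went on for 4 more weeks at a reduced dose. The olive oil group (n = 3) had 6 weeks of the vehicle and nothing after it, so ethanol and the added weeks cannot be told apart where it is the control. A further olive oil sample was not analysed here.

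Endothelium takes up growth signals through receptors made almost only there. Kdr and Flt1 bind VEGF-A, which in the kidney comes largely from podocytes and tubule cells and maintains the fenestrated capillaries of the organ. Tek is the receptor of the angiopoietins, and Tie1 is its partner at the cell surface. Cdh5 and Pecam1 hold the cells together, Emcn coats them with a mucin, and Eng is a co-receptor for ligands of the BMP and TGF-beta family. A pair of genes separates the capillary beds of the mouse kidney: Ehd3, an endocytic trafficking ATPase, is enriched in the glomerulus, while Plvap builds the diaphragms across the fenestrae of the capillaries around the tubules.

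Library totals lay between 16.4 M and 23.5 M counts. CCl4+EtOH replicate 3 stood nearer to the other groups than replicates 1 and 2 did, in genes of injury as well as in several of those below. Havcr1, which tubule cells make when injured, reached 2000, 1151 and 108 CPM (counts scaled to a common library size by TMM) in CCl4+EtOH replicates 1, 2 and 3, and between 3.39 and 16.3 CPM in the other 11 libraries. EtOH replicates 1 to 3 held adrenal transcripts, with Cyp21a1 of the adrenal cortex between 180 and 241 CPM, against 0 in EtOH replicate 4. In bulk tissue, fewer endothelial cells and less RNA per cell cannot be told apart.

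All 10 genes were well measured in whole kidney, and no member dropped below 25.1 CPM in any library. Divided by the summed exon length of each gene in GENCODE M21, the level was highest for Plvap in all 4 groups, with 45.1 ± 4.62 CPM per kb in CCl4+EtOH kidneys (SD, n = 3) and 49.2 ± 2.35 CPM per kb in olive oil kidneys (SD, n = 3). Eng came next, at 29.0 ± 5.35 and 28.9 ± 3.94 CPM per kb in the same groups. Emcn, Pecam1, Tek, Cdh5, Tie1 and Kdr followed between 7.46 and 12.4 CPM per kb in CCl4+EtOH kidneys and between 8.59 and 12.5 in olive oil kidneys. Ehd3 and Flt1 were lowest in every group, and Flt1 stood at 3.68 ± 1.21 and 4.295 ± 0.23 CPM per kb in CCl4+EtOH and olive oil kidneys. Exons of Eng overlap those of Fpgs on the opposite strand, and whether counting used the strand is not stated in the sources at hand, so reads of that pair may be mixed. The exons of the other 9 members overlap no other gene.

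Summed over the 10 genes, endothelial transcripts made up 619 ± 83.3 CPM in CCl4+EtOH kidneys (SD, n = 3), 715 ± 9.05 CPM in EtOH kidneys (SD, n = 4), 700 ± 96.1 CPM in CCl4 kidneys (SD, n = 4) and 667 ± 30.9 CPM in olive oil kidneys (SD, n = 3). CCl4+EtOH replicates 1 and 2, at 597 and 549 CPM, lay under all olive oil kidneys, and replicate 3, at 711 CPM, lay over all of them. The EtOH kidneys were the most alike, between 705 and 726 CPM. The group with the lowest mean was CCl4+EtOH for Kdr, Flt1, Tie1, Emcn, Ehd3 and Plvap, and olive oil for Tek, Pecam1, Cdh5 and Eng.

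**Figure D1:**
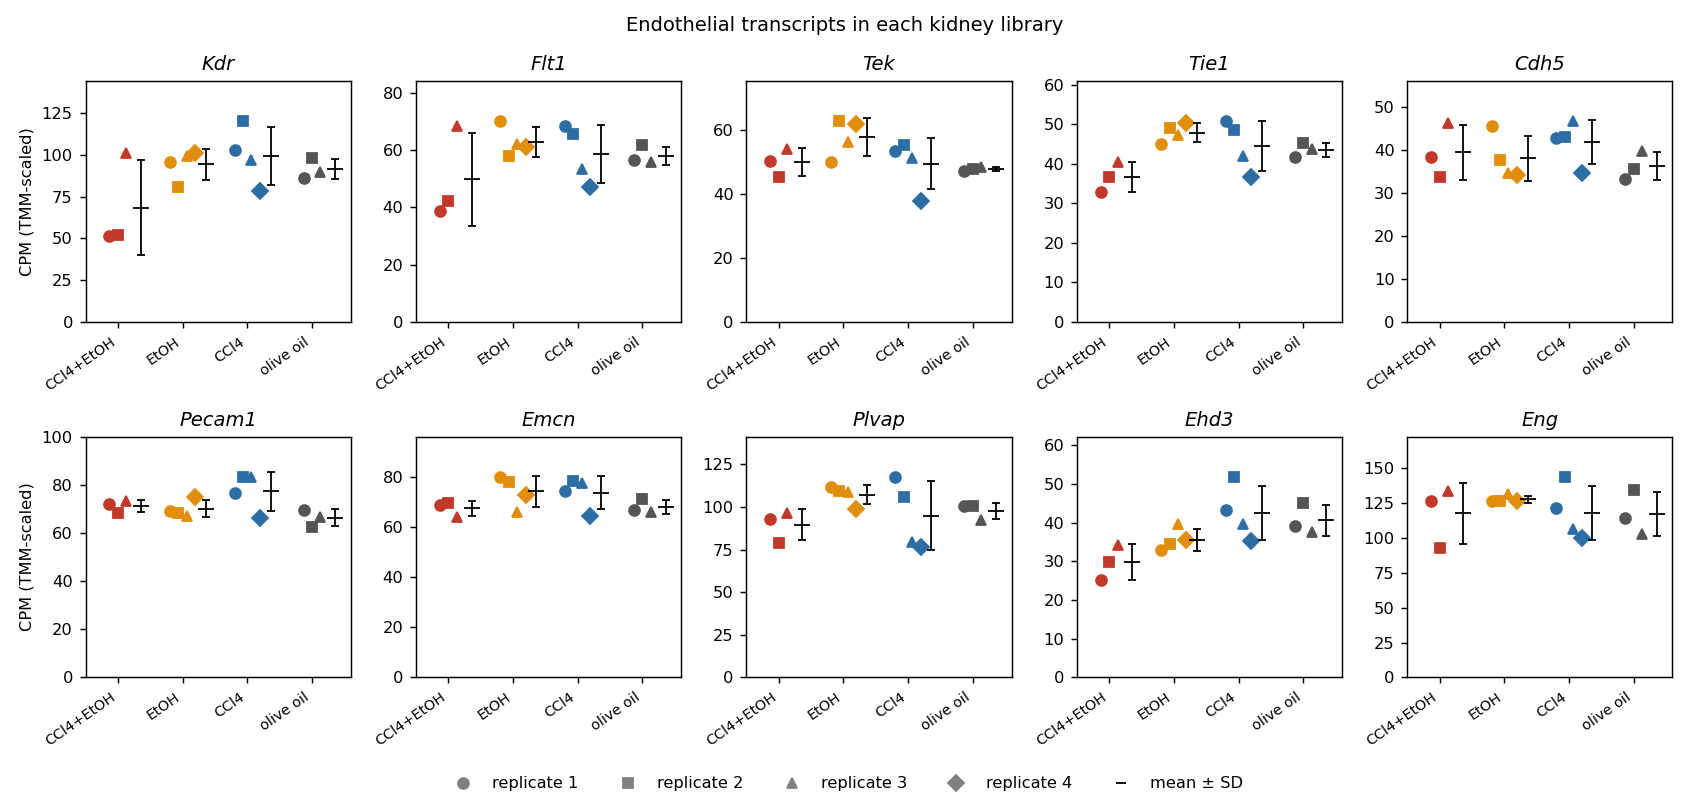
Level of each of the 10 endothelial genes in every kidney library, in CPM on TMM-scaled libraries, with 1 point per mouse and the mean ± SD of each group beside its points. Kdr and Flt1 are low in CCl4+EtOH replicates 1 and 2 but not in replicate 3, Ehd3 and Tie1 lie below olive oil in all 3 CCl4+EtOH kidneys, and Pecam1 and Emcn vary little.

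CCl4+EtOH against olive oil shows the combined treatment against the vehicle. Ehd3 fell, and it was the only one of the 10 to pass the threshold in this comparison. Tie1 was lower in all CCl4+EtOH kidneys without passing. Kdr and Flt1 were low in 2 of the 3 treated kidneys, and Tek, Pecam1, Cdh5, Emcn, Plvap and Eng stayed within 0.13 on the log2 scale of their olive oil level. Over all genes tested, 35.4% were called in this comparison and 16.6% were called lower, so 1 member of 10 is under the share found among all genes.

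Ehd3, the gene enriched in glomerular endothelium, had 25.1, 30.0 and 34.3 CPM in CCl4+EtOH kidneys, against 39.2, 45.2 and 37.7 CPM in olive oil kidneys. Each CCl4+EtOH kidney was below each olive oil kidney. The log2 change was -0.45 ± 0.14 (SE), with a 95% interval of -0.75 to -0.15 and an adjusted p of 0.0231 in edgeR's quasi-likelihood test. The call was lost when any of 3 libraries was left out: the adjusted p was 0.117 without CCl4+EtOH replicate 1, 0.0648 without CCl4+EtOH replicate 2 and 0.098 without olive oil replicate 2. It was also lost in a fit of the CCl4+EtOH and olive oil libraries alone, with an adjusted p of 0.0541, and with a block for low or high numbers in the sample titles (the title-number block), with a change of -0.31 and an adjusted p of 0.269. All CCl4+EtOH kidneys have high title numbers, and all olive oil kidneys analysed have low ones. The block was thus estimated only within the EtOH and CCl4 groups, and in the CCl4 group it coincides with the schedule. Here and below, against olive oil, the block cannot separate title number from treatment.

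Kdr, the main signalling receptor for VEGF-A, had 51.6, 51.9 and 101 CPM in CCl4+EtOH kidneys, against 86.4, 98.1 and 89.9 CPM in olive oil kidneys. Flt1, the high-affinity VEGF-A receptor that also acts as a trap for the ligand, had 38.7, 42.1 and 68.5 CPM in CCl4+EtOH kidneys, against 56.5, 61.6 and 55.9 CPM in olive oil kidneys. For both receptors, CCl4+EtOH replicates 1 and 2 were under every library of the other 3 groups, and replicate 3 was above every olive oil kidney. The log2 change over the group was -0.42 ± 0.22 (SE) for Kdr, with a 95% interval of -0.90 to 0.05 and an adjusted p of 0.153, and -0.22 ± 0.19 (SE) for Flt1, with an interval of -0.62 to 0.18 and an adjusted p of 0.375. Without CCl4+EtOH replicate 3, both passed, Kdr at -0.82 with an adjusted p of 0.000408 and Flt1 at -0.53 with an adjusted p of 0.00643, and the share of all genes called was 45.2%. Replicate 3 was also the treated kidney with the lowest Havcr1 level, and the part of tubule injury in the Kdr and Flt1 values was not tested.

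Tie1, the partner receptor of Tek, had 32.9, 36.7 and 40.4 CPM in CCl4+EtOH kidneys, against 41.7, 45.3 and 43.7 CPM in olive oil kidneys. These groups did not overlap either, as was the case in this direction for 20.8% of all genes tested. The log2 change of -0.25 ± 0.11 (SE) had a 95% interval of -0.49 to -0.01 and missed the threshold, with an adjusted p of 0.0974. Without CCl4+EtOH replicate 3, the change was -0.33 and the adjusted p 0.0355. Tek itself had 50.3, 45.3 and 54.0 CPM in CCl4+EtOH kidneys, against 47.1, 47.8 and 48.5 CPM in olive oil kidneys, so the values overlapped. Its 95% interval ran from -0.21 to 0.33.

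Among the junction and surface genes, Pecam1 had 72.2, 68.2 and 73.1 CPM in CCl4+EtOH kidneys, against 69.7, 62.5 and 66.8 CPM in olive oil kidneys, at a log2 change of 0.10 ± 0.09 (SE). Emcn had 68.7, 69.4 and 63.9 CPM in CCl4+EtOH kidneys, against 66.5, 70.9 and 66.1 CPM in olive oil kidneys, at a change of -0.01 ± 0.09. Both had overlapping groups, and their 95% intervals, -0.09 to 0.29 for Pecam1 and -0.20 to 0.18 for Emcn, were the narrowest of the set. The log2 differences were 0.12 ± 0.14 for Cdh5, -0.13 ± 0.14 for Plvap and 0.01 ± 0.15 for Eng, with adjusted p between 0.509 and 0.981 and overlapping libraries.

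The 4 members that were lower in CCl4+EtOH kidneys, or low in 2 of them, varied together across libraries. Other members did too, with a positive Pearson's r of log2 CPM in all 45 pairs. The promoter windows of these 4 genes are shown here. They run from 250 bases before to 50 bases after the RefSeq start of each gene, 5′ to 3′ on the gene's strand, in build GRCm38.p6. RefSeq windows were matched for 7 of the 10 members. Kdr lies at chr5:75978406-75978705 on the minus strand, Flt1 at chr5:147725962-147726261 on the minus strand, Tie1 at chr4:118489800-118490099 on the minus strand and Ehd3 at chr17:73804591-73804890 on the plus strand. Capitals mark GGAAG on either strand (CTTCC when on the other), a form of the core that ETS factors such as Erg, Fli1 and Ets1 bind, and TATAAA, the letters of a TATA box, also searched on both strands.
Kdr: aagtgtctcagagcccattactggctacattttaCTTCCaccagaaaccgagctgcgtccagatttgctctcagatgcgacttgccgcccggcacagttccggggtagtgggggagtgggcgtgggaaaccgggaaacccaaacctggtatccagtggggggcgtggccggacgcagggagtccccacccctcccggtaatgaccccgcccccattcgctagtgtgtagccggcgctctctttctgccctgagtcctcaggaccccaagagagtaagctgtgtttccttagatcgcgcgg
Flt1: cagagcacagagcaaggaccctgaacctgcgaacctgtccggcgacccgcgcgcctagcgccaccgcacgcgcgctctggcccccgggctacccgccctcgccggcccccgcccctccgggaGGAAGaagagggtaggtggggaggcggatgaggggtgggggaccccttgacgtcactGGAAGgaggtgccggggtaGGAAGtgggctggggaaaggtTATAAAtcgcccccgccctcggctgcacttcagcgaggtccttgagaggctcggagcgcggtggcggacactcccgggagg
Tie1: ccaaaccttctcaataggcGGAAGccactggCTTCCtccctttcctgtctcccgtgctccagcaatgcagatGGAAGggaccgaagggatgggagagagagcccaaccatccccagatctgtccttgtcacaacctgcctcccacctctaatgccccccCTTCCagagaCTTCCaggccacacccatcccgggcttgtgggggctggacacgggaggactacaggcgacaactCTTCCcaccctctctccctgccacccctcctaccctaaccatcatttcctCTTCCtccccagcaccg
Ehd3: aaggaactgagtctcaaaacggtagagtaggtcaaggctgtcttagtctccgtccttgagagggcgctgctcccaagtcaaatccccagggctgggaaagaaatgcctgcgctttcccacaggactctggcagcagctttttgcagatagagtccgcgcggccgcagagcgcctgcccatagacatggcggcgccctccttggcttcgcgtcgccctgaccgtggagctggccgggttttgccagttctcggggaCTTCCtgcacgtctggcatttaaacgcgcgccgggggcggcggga

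The window of Tie1 held 7 GGAAG matches, that of Flt1 held 3, and those of Kdr and Ehd3 held 1 each. In all 32841 RefSeq mouse windows of 300 bases, 71.42% held at least 1 match and 16.52% held 3 or more. Flt1 had a TATAAA match and the other 3 had none, where 13.62% of all windows have one. The motifs share no base in these windows, and a match describes letters, not a bound site.

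CCl4+EtOH against EtOH compares mice that had all received ethanol, with and without the solvent. Tie1 fell and was the only member to pass, next to 34.2% of all genes called in this comparison and 16.2% called lower. Tie1 had 32.9, 36.7 and 40.4 CPM in CCl4+EtOH kidneys, against 44.9, 49.1, 47.4 and 50.3 CPM in EtOH kidneys. Each CCl4+EtOH kidney was below each EtOH kidney. The log2 change was -0.39 ± 0.11 (SE), with a 95% interval of -0.61 to -0.16 and an adjusted p of 0.0123 in edgeR. The highest EtOH value came from replicate 4, the kidney without adrenal transcripts. With that kidney alone in the EtOH group, and the spread taken from the rest, the change was -0.47 with an adjusted p of 0.115, and with the adrenal level as a covariate it was -0.46 with an adjusted p of 0.0791. Without CCl4+EtOH replicate 1, the change was -0.31 with an adjusted p of 0.0744.

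Plvap, the diaphragm protein of fenestrated capillaries, had 93.0, 79.2 and 96.5 CPM in CCl4+EtOH kidneys, against 112, 109.2, 109.1 and 99.1 CPM in EtOH kidneys. All CCl4+EtOH kidneys were lower, a lack of overlap in this direction that 15.3% of all genes showed, and the log2 difference of -0.26 ± 0.13 (SE) had an adjusted p of 0.141. In a fit that split the CCl4 group by schedule, that adjusted p was 0.0269. The lowest EtOH value of Plvap, 99.1 CPM, came from replicate 4, the kidney without adrenal transcripts. It lay close to the 96.5 CPM of CCl4+EtOH replicate 3, and the part of adrenal tissue in this difference was not tested. Ehd3 differed by -0.26 ± 0.13 as well, with an adjusted p of 0.144 and overlapping levels of 25.1 to 34.3 CPM in CCl4+EtOH kidneys and 33.0 to 39.6 CPM in EtOH kidneys. Kdr differed by -0.47 ± 0.21, with an adjusted p of 0.100, and CCl4+EtOH replicate 3, at 101.0 CPM, lay inside the EtOH range of 80.7 to 101.2 CPM. Without that replicate, Kdr stood at -0.87, Flt1 at -0.64 and Ehd3 at -0.37, and all 3 passed beside Tie1, with 45.2% of all genes called. Differences of the remaining members lay between -0.34 for Flt1 and 0.05 for Cdh5.

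CCl4+EtOH against CCl4 compares mice that had all received the solvent, with and without ethanol. The CCl4 kidneys came after 6 weeks, or after 10 weeks with the reduced dose, so ethanol cannot be told apart from the weeks and solvent dose that also differ. Ehd3 fell here too and was again the only member called, beside 34.8% of all genes called and 16.2% called lower. Ehd3 had 25.1, 30.0 and 34.3 CPM in CCl4+EtOH kidneys, against 43.3, 51.9, 39.6 and 35.3 CPM in CCl4 kidneys. The groups did not overlap, and 17% of all genes were likewise lower with no overlap. The log2 change was -0.51 ± 0.13 (SE), with a 95% interval of -0.80 to -0.23 and an adjusted p of 0.00885. This call rested on CCl4+EtOH replicate 1, without which the change was -0.40 and the adjusted p 0.058. Olive oil and CCl4 kidneys are separate controls, while the CCl4+EtOH kidneys are shared between both Ehd3 results.

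Kdr had 51.6, 51.9 and 101 CPM in CCl4+EtOH kidneys, against 103, 120.2, 96.6 and 78.1 CPM in CCl4 kidneys. CCl4+EtOH replicate 3 lay inside the CCl4 range and the other 2 lay below it. Its log2 difference was -0.55 ± 0.21 (SE), with a 95% interval of -0.998 to -0.09 and an adjusted p of 0.0583. Tie1 differed by -0.28 ± 0.11, with an adjusted p of 0.0514. Both passed in DESeq2, which called 37.9% of all genes, with adjusted p of 0.0284 for Kdr and 0.0333 for Tie1, and both passed without CCl4 replicate 4, with adjusted p of 0.0394 for Kdr and 0.0136 for Tie1. Without CCl4+EtOH replicate 3, Kdr was at -0.95, Flt1 at -0.54 and Tie1 at -0.36, and all 3 passed beside Ehd3, with 45.1% of all genes called. The other 7 members had differences from -0.24 for Flt1 to 0.01 for Tek and adjusted p of 0.250 or more.

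Neither agent alone moved a member past the threshold. For EtOH against olive oil, 0 of 10 members were called in edgeR, DESeq2 and limma-voom alike, next to 0.168% of all genes in edgeR. Of all 16105 genes, 1679 had an unadjusted p under 0.05 in edgeR, and so had 1 member. That was Tek, with 49.97, 62.7, 56.3 and 61.8 CPM in EtOH kidneys, against 47.1, 47.8 and 48.5 CPM in olive oil kidneys. All EtOH kidneys were above all olive oil kidneys, a lack of overlap that 5.2% of all genes showed in this direction. The log2 difference of 0.27 ± 0.12 (SE) had a 95% interval of 0.01 to 0.53 and an adjusted p of 0.447. The other differences ran from -0.19 for Ehd3 to 0.14 for Tie1, and 9 of the 10 were positive.

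For CCl4 against olive oil, 0 of 10 members were called in each of the 3 tools, as were 0% of all genes in edgeR, where 640 had an unadjusted p under 0.05. Pecam1, the junction molecule also known as CD31, was the 1 member with an unadjusted p under 0.05. It had 76.6, 83.2, 83.3 and 66.1 CPM in CCl4 kidneys, against 69.7, 62.5 and 66.8 CPM in olive oil kidneys, so CCl4 replicates 1 to 3 were high and replicate 4 was inside the olive oil range. The log2 difference was 0.22 ± 0.08 (SE), with a 95% interval of 0.04 to 0.40 and an adjusted p of 1. The upper ends of the intervals over all 10 members reached 0.57, for Kdr, and the lower ends -0.36, for Flt1. For EtOH against CCl4, 0 members were called in each tool, beside 0.546% of all genes in edgeR. None had an unadjusted p under 0.05, while 1791 of all 16105 genes did. Ehd3 was the member with the largest difference there, at -0.26 ± 0.12 and an adjusted p of 0.462.

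The interaction asked whether the change of CCl4+EtOH over EtOH differed from that of CCl4 over olive oil. The interaction was negative for all 10 members, from -0.59 ± 0.29 (SE, log2) for Kdr to -0.13 ± 0.20 for Eng, and passed for 0 of them in edgeR, 0 in DESeq2 and 3 in limma-voom (Kdr, Flt1 and Tie1), beside 9.12% of all genes in edgeR, 15.5% in DESeq2 and 30.1% in limma-voom. The median over the members was -0.26, against 0.00 over all genes tested. Tie1, at -0.42 ± 0.15 with an adjusted p of 0.0858, and Emcn, at -0.26 ± 0.12 with an adjusted p of 0.171, had unadjusted p under 0.05. The same held for 4608 of all 16105 genes tested. Without CCl4+EtOH replicate 3, Kdr at -0.99, Flt1 at -0.66 and Tie1 at -0.495 passed, with adjusted p of 0.00115, 0.011 and 0.0223, and so did 29.8% of all genes. Without CCl4 replicate 4, Tie1 passed alone, at -0.50 with an adjusted p of 0.0449.

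**Figure D2:**
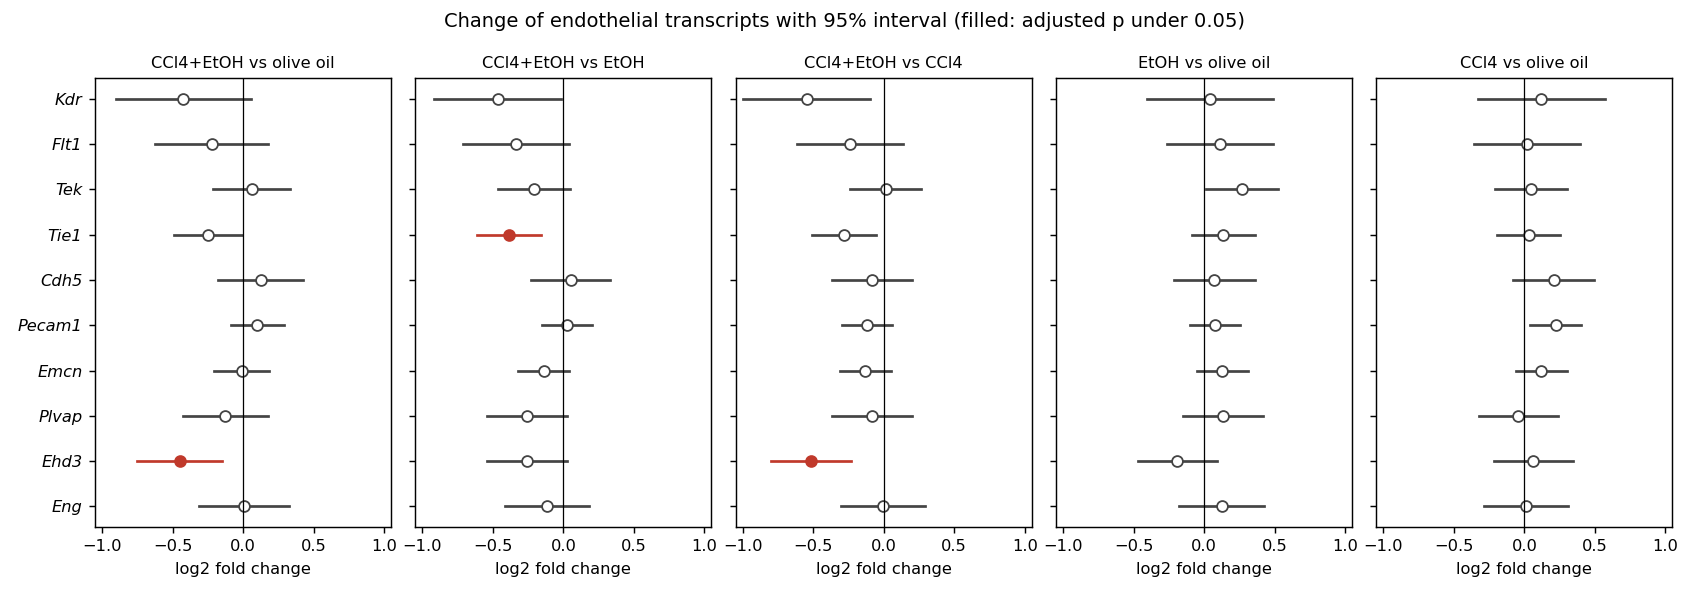
Log2 fold change of each endothelial gene in 5 comparisons, named above each panel with the treated group first, with the 95% interval as a horizontal line. Filled red points passed an adjusted p of 0.05 in edgeR: Ehd3 at -0.45 against olive oil and -0.51 against CCl4, and Tie1 at -0.39 against EtOH.

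Within the CCl4 group, 2 kidneys came after 6 weeks and 2 after 10 weeks, with the dose reduced in the last 4. All 10 members were lower after the longer course, from -0.52 ± 0.11 (SE, log2) for Plvap to -0.08 ± 0.18 for Cdh5, with a median of -0.34 against 0.00 over all genes. In edgeR, no member was called and 4 had an unadjusted p under 0.05 (Plvap, Tie1, Ehd3 and Eng). Of all 16442 genes 0% were called there, 1096 had an unadjusted p under 0.05, and DESeq2 called 23 and limma-voom 8. Plvap had 79.6 and 76.5 CPM after 10 weeks, against 117.8 and 106.0 CPM after 6 weeks. These pairs were far apart, with an adjusted p of 0.352 in edgeR, 0.0137 in DESeq2 and 0.0458 in limma-voom. Eng had 106.3 and 99.95 CPM after 10 weeks, against 121.4 and 143.7 CPM after 6 weeks. In 7 members, all but Pecam1, Cdh5 and Emcn, both later kidneys lay below both earlier ones, as was so for 22.9% of all genes. The added weeks, the reduced dose and the title numbers, which are high in both later mice, cannot be told apart.

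Ratios between members within a library do not depend on its size or scaling. Kdr over Pecam1, 2 genes on endothelium of all types, was 0.715, 0.760 and 1.38 in CCl4+EtOH kidneys and between 1.16 and 1.48 in EtOH and CCl4 kidneys, against 1.24, 1.57 and 1.35 in olive oil kidneys. CCl4+EtOH replicates 1 and 2 were below the other 12 libraries, replicate 3 included. Flt1 over Pecam1 was also lowest in these 2 libraries, at 0.535, 0.617 and 0.937 in CCl4+EtOH kidneys, against 0.811, 0.987 and 0.836 in olive oil kidneys. In CCl4 kidneys it was 0.891, 0.790, 0.641 and 0.712, so CCl4 replicates 2 to 4 were under every olive oil kidney too. Kdr over Flt1 had a narrower range, at 1.35 ± 0.12 in CCl4+EtOH kidneys (SD, n = 3), 1.504 ± 0.15 in EtOH kidneys (SD, n = 4), 1.70 ± 0.15 in CCl4 kidneys (SD, n = 4) and 1.58 ± 0.04 in olive oil kidneys (SD, n = 3).

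Ratios with Ehd3 and with Tie1 were lower in all 3 CCl4+EtOH kidneys than in olive oil kidneys, replicate 3 included. Ehd3 over Pecam1 was 0.348, 0.439 and 0.470 in CCl4+EtOH kidneys and 0.511 ± 0.06 in EtOH kidneys (SD, n = 4), against 0.562, 0.724 and 0.564 in olive oil kidneys. CCl4+EtOH and olive oil kidneys did not overlap, and the EtOH mean lay between them, as did the CCl4 mean of 0.550 ± 0.06 (SD, n = 4). EtOH replicates 1, 2 and 4 and CCl4 replicates 3 and 4 were also under every olive oil kidney. Tie1 over Tek was 0.655, 0.810 and 0.748 in CCl4+EtOH kidneys and 0.834 ± 0.05 in EtOH kidneys (SD, n = 4), against 0.885, 0.948 and 0.901 in olive oil kidneys, again with no overlap between CCl4+EtOH and olive oil. On this ratio, EtOH replicates 2 to 4 and CCl4 replicates 2 and 3 were under every olive oil kidney too. EtOH replicate 2, at 0.782, lay inside the CCl4+EtOH range. Plvap over Ehd3, the gene of the peritubular bed over that of the glomerular bed, was 3.05 ± 0.57 in CCl4+EtOH kidneys (SD, n = 3) and 3.03 ± 0.31 in EtOH kidneys (SD, n = 4), against 2.23 ± 0.33 in CCl4 kidneys (SD, n = 4) and 2.41 ± 0.17 in olive oil kidneys (SD, n = 3). The ratios were not tested.

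**Figure D3:**
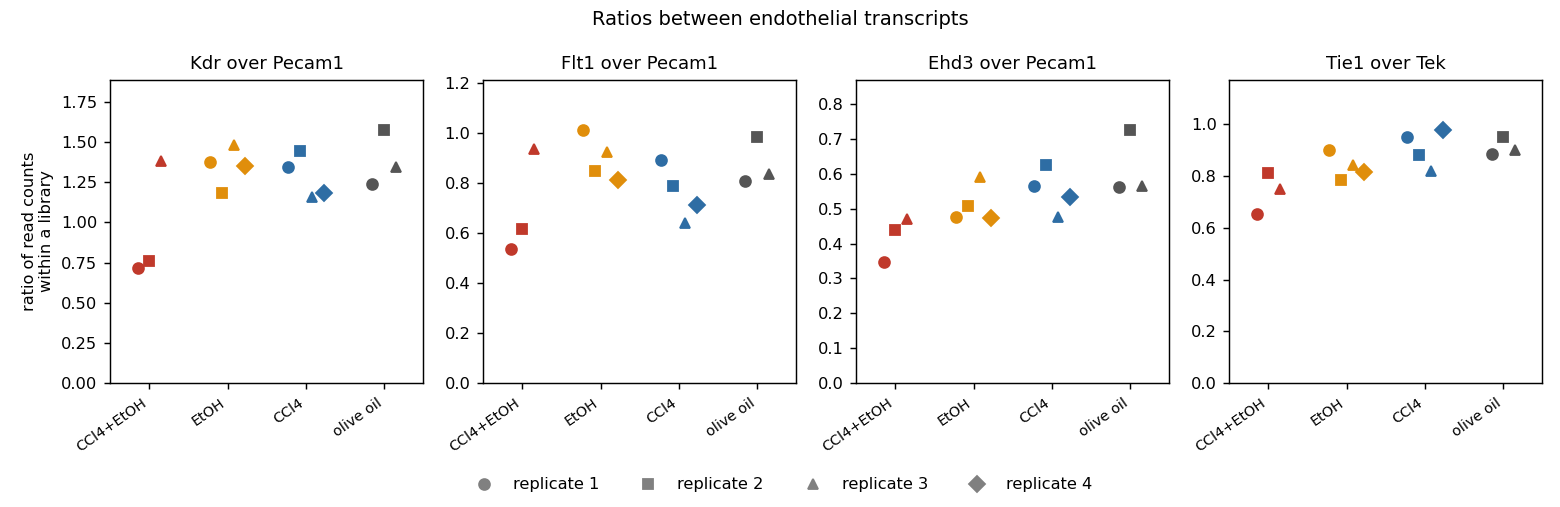
Ratios of read counts between 2 endothelial genes within each library, by group, with 1 point per mouse and no unit. Kdr over Pecam1 is low in CCl4+EtOH replicates 1 and 2 alone. Flt1 over Pecam1 is lowest in the same kidneys, with CCl4 replicate 3 close to them. Ehd3 over Pecam1 and Tie1 over Tek lie under olive oil in all 3 CCl4+EtOH kidneys, as they do in several EtOH and CCl4 kidneys.

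Across the 14 libraries, which share 4 groups and a tissue, the members varied in a common direction. Pearson's r of log2 CPM was positive in all 45 pairs, with a median of 0.44. The strongest pair was Kdr with Flt1 at 0.90, and 0.92 after the group means were removed. Kdr with Ehd3 followed at 0.82, Flt1 with Tie1 at 0.82 and Kdr with Tie1 at 0.79, while Pecam1 with Plvap had the lowest r of 0.04. Kdr with Emcn, at 0.27 over all libraries, was the 1 pair that turned negative within groups, at -0.01. CCl4+EtOH replicates 1 and 2 enter each of these values.

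Among 13538 other genes with a mean of at least 1 CPM, predicted genes aside, the genes most like Kdr over the 14 libraries were Abca8a (r = 0.95), Cd300lg (r = 0.94) and Slc26a4 (r = 0.94). Those most like Plvap were Adcy6 (r = 0.88), Pitpnm3 (r = 0.84) and Mta3 (r = 0.84). Emcn was most like Arhgap29 (r = 0.83), Ezh1 (r = 0.79) and Atp8b5 (r = 0.78), and Eng most like Metrn (r = 0.78), Cdca7l (r = 0.77) and Angptl2 (r = 0.77). These are descriptions over the same libraries, with no test.

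Other genes of the endothelium were counted over 12 lists, which together hold 99 tested genes that are not members. For CCl4+EtOH against olive oil, 29 of the 99 rose and 8 fell, or 37.4% called either way, near the 35.4% called among all genes. By direction the 2 differ, since of all 16105 genes 3036 rose and 2670, or 16.6%, fell. For CCl4+EtOH against EtOH, 25 rose and 9 fell, and for CCl4+EtOH against CCl4, 24 rose and 11 fell. Against EtOH, 9 of the 99 passed with the adrenal level as a covariate. Calls over all genes in this comparison moved widely with the processing as well, over a range given below, so that count is not a result about the endothelial lists alone. Removing the EtOH kidneys with adrenal transcripts leaves 1 EtOH kidney where there were 4, so the part of these transcripts in the count was not tested. For EtOH against olive oil, 0 of the 99 passed in edgeR, 6 passed in DESeq2, where 2.17% of all genes did, and 5 passed in limma-voom, where 1.56% of all genes did. In edgeR, 13 of the 99 had an unadjusted p under 0.05, beside 1679 of all 16105 genes. For CCl4 against olive oil, 0 passed in any of the 3 tools, and 3 had an unadjusted p under 0.05 in edgeR, beside 640 of all genes.

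Of 8 VEGF ligands and other receptors, 2 rose, 1 fell and 5 did not pass in CCl4+EtOH against olive oil, with a median log2 difference of 0.03 against 0.02 over all genes. Vegfa, the ligand of Kdr and Flt1, had 184, 224 and 357 CPM in CCl4+EtOH kidneys, against 356, 401 and 342 CPM in olive oil kidneys. Replicates 1 and 2 were low, as for its receptors, and replicate 3 was inside the olive oil range, where its receptors lay above theirs. The log2 change was -0.52 ± 0.18 (SE) with an adjusted p of 0.0376, which passed in 16 of 25 alternatives. Without CCl4+EtOH replicate 1 the change was -0.33 with an adjusted p of 0.167, without replicate 2 the adjusted p was 0.143, and without replicate 3 the change was -0.85 with an adjusted p of 3.45e-05. Vegfb, a ligand of Flt1, had 19.4, 21.02 and 36.6 CPM in CCl4+EtOH kidneys, against 33.0, 32.4 and 27.1 CPM in olive oil kidneys, with an adjusted p of 0.277. The VEGF co-receptors Nrp1 and Nrp2 rose, by 0.47 ± 0.11 and 0.56 ± 0.10, in all 3 treated kidneys.

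Of 5 angiopoietin and Tie partners, 1 fell and 4 did not pass, with a median of -0.16. Angpt1, the ligand that activates Tek, had 9.34, 11.9 and 15.6 CPM in CCl4+EtOH kidneys, against 17.3, 22.7 and 21.4 CPM in olive oil kidneys. Each treated kidney was below each control, and the log2 change was -0.74 ± 0.19 (SE) with an adjusted p of 0.00942, or 0.0794 with the title-number block. Against EtOH, 2 of the 5 fell. Angpt2, the context-dependent antagonist of Tek, differed by -0.43 ± 0.27 with an adjusted p of 0.233 against olive oil, and Ptprb, the phosphatase that dampens Tek, by 0.07 ± 0.10 with an adjusted p of 0.614.

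Of 10 tested genes of BMP and TGF-beta signalling, the pathway of Eng, 6 rose, 0 fell and 4 did not pass, with a median of 0.39. Tgfbr2, a TGF-beta receptor of many cell types, had 251, 202 and 131 CPM in CCl4+EtOH kidneys, against 111, 104 and 112 CPM in olive oil kidneys. All treated kidneys were higher, replicate 3 least so, and the log2 change was 0.84 ± 0.17 (SE) with an adjusted p of 0.00208. Tgfbr1 rose by 0.66 ± 0.12, Smad1 by 0.46 ± 0.10 and Bmpr2, a BMP receptor, by 0.32 ± 0.08. Bmpr2 did not pass with only the groups compared (adjusted p of 0.0696) or with the title-number block (0.129). These genes are also made by tubule cells, fibroblasts and macrophages.

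Of 12 junction and adhesion genes, 4 rose and 1 fell. Cd34, a sialomucin of capillary endothelium, rose by 0.62 ± 0.13 (SE), Cd93 by 0.49 ± 0.10 and Jam2, a tight-junction molecule, by 0.97 ± 0.22. Robo4, an endothelial guidance receptor, fell by 0.44 on the log2 scale, with 17.6, 18.3 and 14.9 CPM in CCl4+EtOH kidneys, against 21.3, 23.3 and 24.2 CPM in olive oil kidneys. The Robo4 call was lost without olive oil replicate 3 (adjusted p of 0.0524) and with the title-number block (0.147), where Jam2 missed at 0.0505. Of 12 transcription factors, 3 rose and 0 fell: Klf4 by 1.13 ± 0.21, Mef2c by 0.65 ± 0.12 and Ets1 by 0.45 ± 0.13. Ets1 did not pass without CCl4+EtOH replicate 1 (adjusted p of 0.0648), without olive oil replicate 1 (0.0600) or with only the groups compared (0.074). Of 12 surface receptors, 3 rose and 0 fell. Calcrl, the adrenomedullin receptor, rose by 0.89 ± 0.15, the scavenger receptor Stab1 by 0.51 ± 0.14, and Lyve1 by 0.90 ± 0.33 with an adjusted p of 0.0492 that held in 8 of 25 alternatives. Stab1 did not pass without CCl4+EtOH replicate 2 (adjusted p of 0.0575), without olive oil replicate 2 (0.0641) or with the title-number block (0.177).

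Among genes of vascular tone and clotting, 5 of 11 rose and 1 fell, with a median of 0.61. Edn1, the vasoconstrictor endothelin, had 37.2, 36.6 and 5.87 CPM in CCl4+EtOH kidneys, against 1.70, 1.90 and 2.22 CPM in olive oil kidneys. All treated kidneys were higher and replicates 1 and 2 far more so, at a log2 change of 3.77 ± 0.53 (SE) with an adjusted p of 0.000364. Plat, a plasminogen activator, rose by 1.03 ± 0.22. Ace, angiotensin-converting enzyme, which proximal tubule makes as well, fell by 1.67 on the log2 scale, with 178, 85.5 and 90.3 CPM in CCl4+EtOH kidneys, against 337, 299 and 490 CPM in olive oil kidneys.

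Of 10 genes of activated and tip endothelium, 2 rose and 1 fell. Icam1, which tubule cells make too, rose by 1.27 ± 0.24 (SE), and the leukocyte adhesion molecule Selp rose by 2.18 ± 0.55, at 4.21, 3.51 and 2.07 CPM in CCl4+EtOH kidneys, against 0.587, 0.442 and 1.14 CPM in olive oil kidneys. With the title-number block neither passed, Icam1 at 0.89 with an adjusted p of 0.0591 and Selp at 1.56 with an adjusted p of 0.158. Esm1, a VEGF-induced proteoglycan of tip endothelium, fell by 1.16 on the log2 scale, with 15.9, 13.4 and 14.2 CPM in CCl4+EtOH kidneys, against 24.8, 35.8 and 36.5 CPM in olive oil kidneys. The Esm1 values did not overlap, and all 3 treated kidneys were alike, replicate 3 included. Of 9 arterial genes, 2 rose, Efnb2 by 0.72 ± 0.19 and the Notch ligand Jag1 by 0.70 ± 0.22. Efnb2 was at 0.41 without CCl4+EtOH replicate 2 and still passed, with an adjusted p of 0.0368, while Jag1 without it was at 0.38 with an adjusted p of 0.128. With only the groups compared, the adjusted p was 0.0691 for Efnb2 and 0.0883 for Jag1, and Jag1 was also lost without olive oil replicate 1 or 3 (0.0538 and 0.0814) and with the title-number block (0.1496). Of 4 venous genes, 0 passed in edgeR, DESeq2 or limma-voom, and Darc alone had an unadjusted p under 0.05.

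Of the 6 genes of glomerular endothelium other than Ehd3, 2 rose and 1 fell. Nostrin, a trafficking partner of nitric oxide synthase, rose by 0.92 ± 0.17 (SE) and Plat, counted above as well, by 1.03 ± 0.22. Lpl, a lipase also made by fat, fell by 2.39 on the log2 scale, with 162, 206 and 466 CPM in CCl4+EtOH kidneys, against 1833, 1375 and 1167 CPM in olive oil kidneys. Sema3g, a semaphorin, differed by -0.32 without passing (adjusted p of 0.0697), with 41.2, 53.3 and 61.0 CPM in CCl4+EtOH kidneys, all below the 63.5, 67.6 and 63.1 CPM of olive oil kidneys. It passed in limma-voom (0.0201), in the 5-group fit (0.0419) and without CCl4+EtOH replicate 3 (0.00933). The median of the list was 0.30. Of 7 lymphatic genes, 2 rose and 2 fell. Pdpn, which podocytes and injured epithelium make too, rose by 2.41 ± 0.36, while Prox1, the lymphatic transcription factor, fell by 0.87 and Reln fell by 0.80 on the log2 scale, with Lyve1 as given above. Prox1 did not pass without CCl4+EtOH replicate 1 (adjusted p of 0.0607), without olive oil replicate 1 (0.0619) or with the title-number block (0.0768). Reln did not pass without CCl4+EtOH replicate 1 or 2 (0.0954 and 0.0641), without olive oil replicate 1 or 3 (0.0534 and 0.0781) or with the title-number block (0.136).

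**Figure D4:**
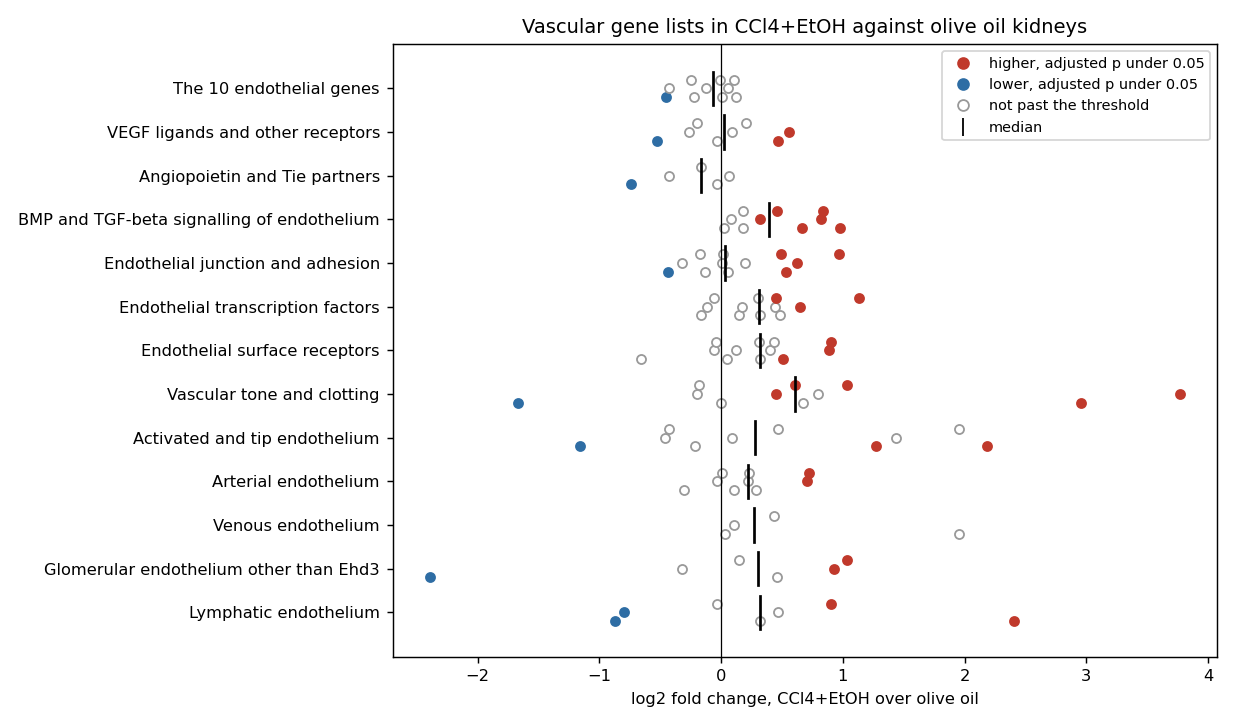
Log2 fold change in CCl4+EtOH over olive oil kidneys of the 10 endothelial genes and of 12 lists of other vascular genes, 1 point per gene, filled where the adjusted p in edgeR was under 0.05, with the list median as a black bar. The 10 genes lie between -0.45 and 0.12, while the lists spread from Lpl at -2.39 to Edn1 at 3.77.

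Markers of other kidney cells moved in the same comparison. Of 8 macrophage markers 7 rose, and their summed level was 402 to 589 CPM in CCl4+EtOH kidneys, against 188 to 261.1 CPM in olive oil kidneys. Of 8 proximal tubule markers 4 fell, with sums of 6667 to 16583 CPM in CCl4+EtOH kidneys, against 17978 to 20172 CPM in olive oil kidneys, and CCl4+EtOH replicate 3 was the highest of the treated. Podocyte markers, the neighbours of glomerular endothelium, had 2 of 8 genes higher and 0 lower, with sums of 457 to 674 CPM in CCl4+EtOH kidneys, against 505 to 532 CPM in olive oil kidneys. Mesangial and mural markers had 3 of 8 higher, with sums of 337 to 529 CPM in CCl4+EtOH kidneys, against 239 to 374 CPM in olive oil kidneys. Platelets make Pecam1 too. Of their 4 tested markers 1 rose and 1 fell, and all 6 listed summed to 9.48 to 15.3 CPM in CCl4+EtOH kidneys, against 12.7 to 17.1 CPM in olive oil kidneys. The part of these cells, macrophages and platelets included, in the endothelial values and in the ratios over Pecam1 was not tested.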

How the data were processed

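The values are raw counts of reads per gene symbol that the authors deposited without normalization, with a column for each mouse. Per the labels' protocols, kidneys were frozen, RNA was taken up on QIAGEN RNeasy columns, and Illumina libraries were made. The submitters' processing notes name GSNAP and build mm9 without a version. What program and annotation did the counting, and whether strand was used, is not given in the sources used here. The 14 columns belong to 14 of 15 samples. Of 23893 table lines, 27 had a calendar date where the symbol should be; these lines, with 0.168% to 0.209% of counts, were dropped. No replicate pair agreed within sampling noise (chi-square per gene of at least 10.3). Each sample is labelled as its own mouse, and p-values measure the spread between these mice.

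All 14 libraries entered 1 model with 4 groups in edgeR 4.0.16 (R 4.3.3), after filterByExpr and TMM, and contrasts were tested by the robust quasi-likelihood F test. P-values were adjusted by Benjamini-Hochberg over 16105 genes, at a threshold of 0.05. A 5-group model over 16442 genes served the CCl4 schedules. SE is the size of a log2 change over the square root of its F, and intervals are 95%. Other settings tried were scaling by upper quartile or by DESeq2's size factors, DESeq2 1.42.0 itself, voom with quality weights (limma 3.58.1), no filter or a minimum of 1 CPM in 3 libraries, the 5-group model, only the groups compared, a block for title numbers under 270 or not, a covariate for adrenal transcripts, removal of the EtOH libraries that held them, and removal of each library in turn. The steps were also run on simulated data. The changes put in were larger than those of the members called, so that run does not tell whether changes of this size are found. The 10 genes, the lists, the tests and the alternatives were chosen with earlier results of these data known. Named are all 10 members, up to 4 genes per list with the smallest p in CCl4+EtOH against olive oil, and the 3 genes most correlated with each of Kdr, Plvap, Emcn and Eng; 1 gene that this rule names is not reported here. Exon lengths come from GENCODE M21 (GRCm38), not the build of the counts, and promoter windows from RefSeq.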

Additional observations from a re-analysis of the deposited data

Results flagged for a closer look

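Eng in EtOH replicate 3 stood at 131.0 CPM, while the other 3 EtOH kidneys lay between 126.2 and 126.4 CPM. The gap is large only because those 3 are so close. Of 20 gene and group combinations with 4 kidneys, this was the 1 set apart by Dixon's test at its 95% critical value, and chance sets apart about 1 in 20.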

How the results depend on the processing

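The number of members called moved with the processing in every comparison that includes CCl4+EtOH, and no call reversed. Against olive oil, the 1 call (Ehd3) became 3 in limma-voom, 2 in the 5-group fit, 0 with only the groups compared and 0 with the title-number block, and 0 to 4 with a library left out. Against EtOH, the 1 call (Tie1) became 3 in limma-voom, 2 in the 5-group fit, 0 with the adrenal covariate, 0 without adrenal-bearing EtOH libraries, and 0 to 4 with a library left out. Against CCl4, the 1 call (Ehd3) became 2 with DESeq2 size factors, 3 in DESeq2, 4 in limma-voom, 2 in the 5-group fit, and 0 to 4 with a library left out. For the interaction, 0 calls became 3 in limma-voom, 1 in the 5-group fit and 0 to 3 with a library left out. For the CCl4 schedules, 0 became 1 in DESeq2 and 1 in limma-voom, both times Plvap. The counts of 4, and 3 for the interaction, with a library left out came without CCl4+EtOH replicate 3, and without CCl4+EtOH replicate 1 the counts against olive oil, EtOH and CCl4 were all 0. EtOH or CCl4 alone against olive oil, and EtOH against CCl4, gave 0 members in all settings run. Over all genes, calls ranged over 3099 to 7417 for CCl4+EtOH against olive oil (5706 as reported), 335 to 7417 against EtOH (5514), 3480 to 7396 against CCl4 (5610), 0 to 350 for EtOH against olive oil (27), 0 to 373 for EtOH against CCl4 (88), 3 to 4881 for the interaction (1468), 0 to 23 for the schedules (0) and 0 to 1 for CCl4 against olive oil (0). Other endothelial genes called ranged from 24 to 41 of 99 against olive oil (37), 1 to 41 against EtOH (34), 26 to 43 against CCl4 (35) and 0 to 29 for the interaction (8). The causes were not tested. No paired analysis was possible because each mouse has its own title number and no number is shared between groups. With 3 or 4 kidneys a group, member SEs were 0.08 to 0.22 on the log2 scale between 2 groups and 0.12 to 0.29 for the interaction, which sets the size of difference that could be seen.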

Other observations

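Erythroid transcripts summed to 539, 298 and 3828 CPM in CCl4+EtOH replicates 1, 2 and 3, against 1533, 1090 and 1266 CPM in olive oil kidneys. Cell cycle markers, 8 of 8 higher in CCl4+EtOH than in olive oil kidneys, summed to 363, 136 and 36.9 CPM in replicates 1, 2 and 3, against 22.1, 18.4 and 20.1 CPM in olive oil kidneys. Adipocyte markers summed to 112, 132 and 549 CPM in CCl4+EtOH replicates 1, 2 and 3, against 227, 43.9 and 95.5 CPM in olive oil kidneys.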
